A study of Homo sapiens with 4 samples.

Results

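The genes described here control the step at which a cell in G1 commits to copying its DNA: the D cyclins CCND1, CCND2 and CCND3, their kinases CDK4 and CDK6, the inhibitors CDKN2A, CDKN2B, CDKN2C and CDKN1B, and RB1. They were chosen by name, and all 10 were found among the 56753 loci of the deposited expression table, each at a locus that names no other gene. The table holds RNA-seq of 786-O, an established human line of clear cell renal cell carcinoma that lacks functional VHL. Cells stably carried a control vector (2 libraries) or PRDM16 delivered by lentivirus (2 libraries), and both groups were adherent cultures under standard conditions. The comparison asks how PRDM16, a zinc finger regulator of transcription, affects the transcripts of these cells when overexpressed. The labels give neither the promoter that drives PRDM16 nor whether the cells were a pool or a clone. Nothing states that the replicates come from different cultures, and all p-values here rest on library-to-library spread that may be technical.

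In G1, D cyclins bind CDK4 or CDK6, and the active kinase phosphorylates the retinoblastoma protein RB1. RB1 then releases the E2F factors, which switch on genes of DNA replication. INK4 proteins, encoded by CDKN2A, CDKN2B and CDKN2C, bind CDK4 and CDK6 directly, while CIP/KIP proteins such as p27, the product of CDKN1B, bind cyclin-CDK complexes. CCND1 is known as a target of the HIF factors that are active in renal carcinoma cells without VHL.

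Values are FPKM (fragments per kilobase, adjusted for library size), a per-length unit that allows genes to be compared. PRDM16 was 0.0157 and 0.234 FPKM in the control vector libraries and 1226 and 1146 FPKM in the PRDM16 libraries, as labelled. Libraries summed to between 556213 and 574003 FPKM, and their read depth is unknown. The renal markers PAX8, PAX2, KRT8, VIM, CDH2 and EPAS1 were above 1 FPKM in all 4 libraries, and CA9 was between 0.394 and 0.629 FPKM. Among leukocyte, endothelial, fibroblast and muscle markers, CD3E, DCN and MYH11 were listed at 0 throughout, and PDGFRB, at 1.26 FPKM in control vector replicate 2, was the only one at a locus of its own to reach 1 FPKM in any library. Of the neuronal markers, SNAP25 was between 2.41 and 2.77 FPKM, RBFOX3 between 0.825 and 1.68 FPKM and SYP between 0.217 and 0.573 FPKM. Control vector replicate 2 stood apart in genes of DNA replication: the 16 S phase genes listed as E2F targets were all lowest in that library, by a median of 0.92 on the log2 scale below the mean of the other 3. The result for each tested gene of the set, and the median of most other lists, is therefore also given without that library.

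With PRDM16, none of the 7 genes tested was called as changed, and the other 3 were too low to be tested. A linear model (limma) was fitted to log2(FPKM + 1) of the 13246 loci with a mean of at least 1 FPKM, and 7 of the 10 genes were among them. At an adjusted p under 0.05, 0 of the 7 were called, against 0.0226% of all tested loci. At an unadjusted p under 0.05 the number was 1 of 7, CDKN1B (limma p before adjustment 0.0406), where the share over all loci was 6.12%. CDKN1B was also the only one of the 7 whose PRDM16 libraries both lay below both control vector libraries, a pattern found at 20.3% of all tested loci. Both PRDM16 libraries lay higher at 0 of the 7 genes and at 21.1% of all loci. The median log2 change of the 7 was 0.07, beside 0.00399 for all tested loci. With 2 libraries against 2, an exact two-sided permutation test cannot go below p = 0.333.

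**Figure D1:**
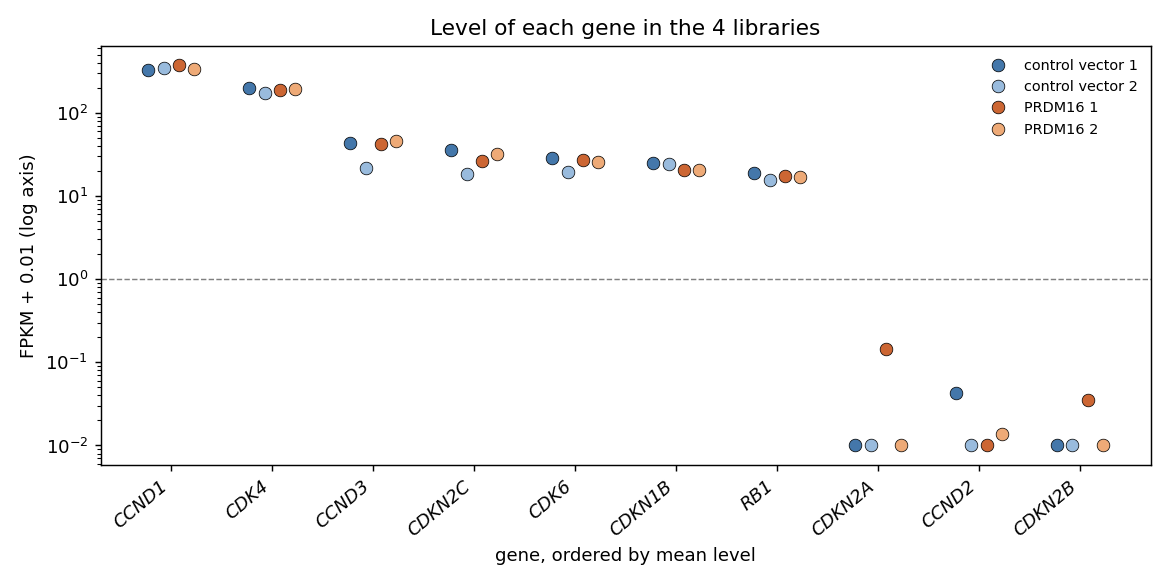
FPKM + 0.01 on a log axis for each of the 10 genes, with 1 point per library and the dashed line at 1 FPKM. CCND1 and CDK4 lie at 171 FPKM or more in every library, 5 genes lie between 15.4 and 46.2 FPKM, and CDKN2A, CCND2 and CDKN2B lie at 0.135 FPKM or less.

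Cyclin D1 transcripts made up most of the D cyclin signal in every library. CCND1 (locus XLOC_008249, chromosome 11, 69641087 to 69654474, plus strand of hg38) was 324 and 350.3 FPKM with the control vector against 376 and 335 FPKM with PRDM16. The groups overlap, and the highest library was 1.16 times the lowest. The level ranked at the 98.5th percentile of the tested loci. The log2 change was 0.07 (95% interval from -0.19 to 0.34, limma adjusted p = 0.798), and 0.13 without control vector replicate 2.

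CCND3, which encodes a second cyclin partner of CDK4 and CDK6, was 42.9 and 21.4 FPKM with the control vector against 41.8 and 46.2 FPKM with PRDM16. Control vector replicate 2 was low, and the other 3 libraries lay close together. The locus, XLOC_045461, lies on chromosome 6 at 41934933 to 42050357 on the minus strand. The group means were 32.1 ± 15.2 and 44.0 ± 3.09 FPKM (SD, n = 2 each). On the log2 scale the change was 0.52, with a 95% interval from -0.36 to 1.40 (limma adjusted p = 0.689). Leaving out control vector replicate 2 gave 0.03, and leaving out replicate 1 of that group gave 1.002 (limma adjusted p = 0.935 and 0.130). In such a fit the group with 1 library left has no spread of its own and is assumed to vary like the other.

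CCND2, the third D cyclin gene (chromosome 12, 4273772 to 4305350), was near 0 in all libraries. It was 0.0324 FPKM and a listed 0 in the control vector, and a listed 0 and 0.00376 FPKM in PRDM16. The gene was below the filter and was not tested. By FPKM, CCND1 therefore held 88.3% and 94.2% of the summed D cyclins with the control vector and 90.0% and 87.9% with PRDM16. CCND3 held nearly all of the rest, between 5.77% and 12.1%. The share of CCND3 was lowest in control vector replicate 2, and the groups overlap.

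Of the 2 kinase genes, CDK4 was the more abundant by FPKM. CDK4 (XLOC_012609, chromosome 12, 57747727 to 57756013, minus strand) was 197 and 171 FPKM with the control vector against 187 and 192 FPKM with PRDM16. Both PRDM16 values lay between the control vector values. The log2 change was 0.04, with a 95% interval from -0.23 to 0.31 (limma adjusted p = 0.899). CDK6 (XLOC_048525, chromosome 7, 92604921 to 92836594, minus strand) was 28.9 and 19.5 FPKM with the control vector against 27.3 and 25.5 FPKM with PRDM16. Control vector replicate 2 was again the lowest, and both PRDM16 values lay between the control vector values. The log2 change of CDK6 was 0.14 (95% interval from -0.39 to 0.68, limma adjusted p = 0.804). CDK4 was 6.81 and 8.79 times CDK6 with the control vector against 6.85 and 7.51 times with PRDM16. Without control vector replicate 2 the log2 changes were -0.06 for CDK4 and -0.13 for CDK6, so neither gene had a direction that held.

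Among CDKN2A, CDKN2B and CDKN2C, the INK4 inhibitors of the set, CDKN2C was the only one expressed above 1 FPKM. CDKN2C encodes p18 (XLOC_000748, chromosome 1, 50960745 to 50974633, plus strand) and was 36.2 and 18.5 FPKM with the control vector against 26.5 and 31.8 FPKM with PRDM16. Both PRDM16 values again lay between the control vector values. The log2 change was 0.16, with a 95% interval from -0.71 to 1.03 (limma adjusted p = 0.875). Leaving out control vector replicate 2 gave -0.31, and leaving out replicate 1 of that group gave 0.62.

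CDKN2A, which encodes p16 and, in another reading frame, p14ARF, was a listed 0 in both control vector libraries and in PRDM16 replicate 2, and 0.135 FPKM in PRDM16 replicate 1. CDKN2B, the gene of p15, showed the same pattern at 0.0251 FPKM in PRDM16 replicate 1 and a listed 0 in the other 3 libraries. Neither reached the filter, and no fold is given. Such values were common in the table: 994 loci were above 0 in PRDM16 replicate 1 alone, with a median of 0.0456 FPKM, and between 823 and 1271 loci were above 0 in each of the other libraries alone. A value near 0 can also be a failed estimate. CDK7, a kinase that every dividing cell uses, was listed at 0.309 and 0.249 FPKM in the control vector and at 0.0317 and 0.534 FPKM in PRDM16.

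Genes on both sides of this pair on chromosome 9 were detected, among them KLHL9 and DMRTA1. CDKN2A lies at 21967753 to 21995301 and CDKN2B at 22002903 to 22009363, both on the minus strand. Before them come MLLT3, at 17.1 to 19.4 FPKM, FOCAD, at 12.4 to 14.3 FPKM, and KLHL9, at 5.12 to 6.08 FPKM. MTAP, an enzyme of methionine salvage, was measured only in a locus that names 5 genes, including CDKN2B-AS1, the noncoding RNA that overlaps the pair. That summed value was 30.0 and 24.4 FPKM with the control vector against 33.7 and 32.1 FPKM with PRDM16, and the table does not divide it between the 5 names. Beyond CDKN2B, DMRTA1, a transcription factor gene, was 3.88 and 4.24 FPKM with the control vector against 3.03 and 2.39 FPKM with PRDM16. Its PRDM16 libraries were both lower, with a log2 change of -0.45 that did not pass (limma adjusted p = 0.689). ELAVL2, further along, was at or near 0 in all libraries.

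**Figure D2:**
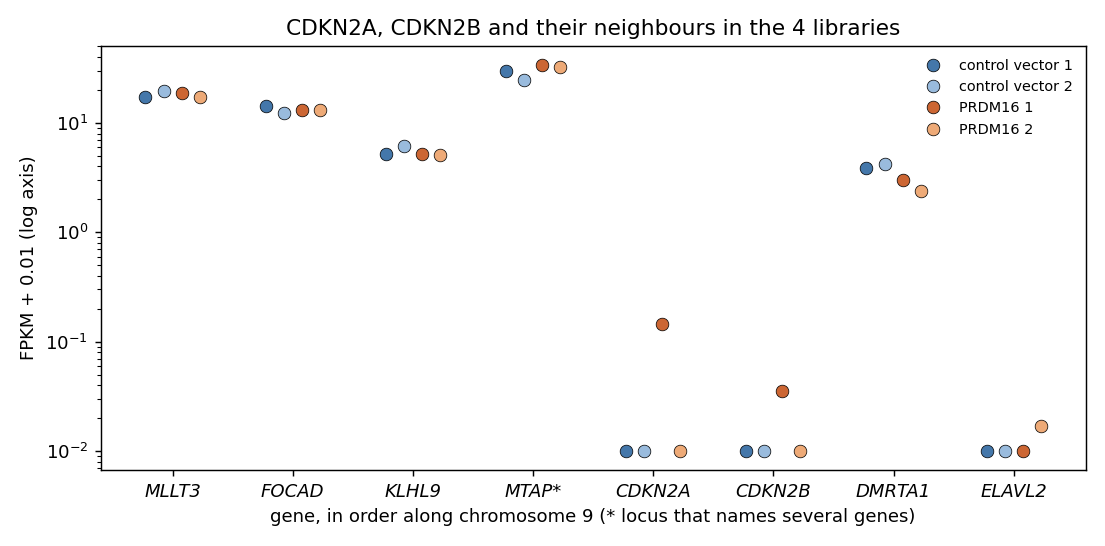
FPKM + 0.01 on a log axis for CDKN2A, CDKN2B and 6 neighbouring genes in their order along chromosome 9, with 1 point per library; the asterisk marks the locus that sums 5 names. CDKN2A and CDKN2B are above 0 only in PRDM16 replicate 1. KLHL9 before them and DMRTA1 after them lie above 2 FPKM in every library. So does the summed locus placed at MTAP, which also names CDKN2B-AS1.

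CDKN1B, which encodes the CIP/KIP inhibitor p27, was the gene of the set whose groups stood furthest apart for their spread. It was 25.0 and 24.3 FPKM with the control vector against 20.7 and 20.7 FPKM with PRDM16. Both PRDM16 libraries were lower, and the replicates lay close together in both groups. In bulk RNA, fewer expressing cells and less RNA per cell cannot be told apart. The means were 24.7 ± 0.490 and 20.7 ± 0.0295 FPKM (SD, n = 2 each), 1.19-fold apart. The log2 change of -0.24 (SE 0.09, 95% interval from -0.47 to -0.02) did not pass in the limma fit over all loci (adjusted p = 0.689). The change was between -0.26 and -0.23 in all 14 alternative analyses, including those that left out each library, with adjusted p from 0.189 to 1. The unadjusted p was above 0.05 in 5 of them: 0.0528 without a variance trend, 0.140 with the replicate number as a block, and, in limma fits, 0.0574, 0.211 and 0.206 without control vector replicate 1, PRDM16 replicate 1 and PRDM16 replicate 2. Its locus is XLOC_010647 (chromosome 12, 12715058 to 12722371, plus strand). By its p-value it ranked 641st among the 13246 loci.

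RB1, the substrate of these kinases, was 18.9 and 15.4 FPKM with the control vector against 17.3 and 16.7 FPKM with PRDM16. Both PRDM16 values lay between the control vector values. Its locus is XLOC_013583 (chromosome 13, 48303726 to 48599436, plus strand). The log2 change was -0.00430, with a 95% interval from -0.34 to 0.33 (limma adjusted p = 0.989), and was -0.14 without control vector replicate 2.

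Ordered by mean level over the 4 libraries, the set ran from CCND1 (346 FPKM) and CDK4 (187 FPKM) to CCND3 (38.1 FPKM), CDKN2C (28.2 FPKM), CDK6 (25.3 FPKM), CDKN1B (22.7 FPKM) and RB1 (17.1 FPKM). CCND1 lay above CDK4, and CDK4 above CCND3, with no overlap between libraries. From CCND3 to RB1 the ranges of neighbouring genes overlapped, except that every CDKN1B library lay above every RB1 library. CDKN2A, CCND2 and CDKN2B came last, and their order rests on values in 1 or 2 libraries.

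**Figure D3:**
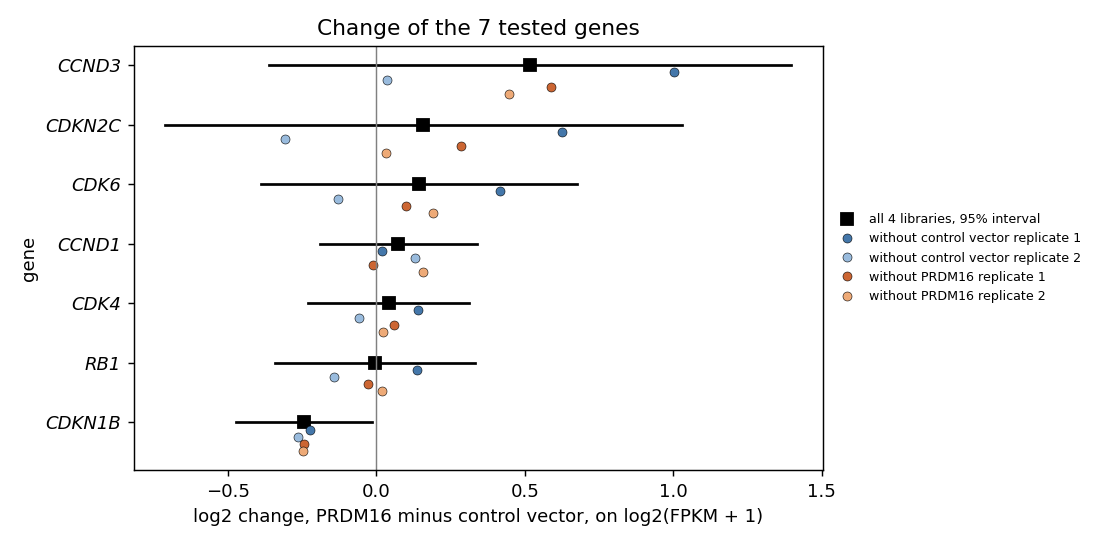
Log2 change, PRDM16 minus control vector, on log2(FPKM + 1), for the 7 tested genes, as a square with its 95% limma interval and, below it, 4 points that each leave out 1 library. The interval of CDKN1B ends at -0.02 before adjustment over all loci, and the points of CDKN2C run from -0.31 to 0.62.

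Ratios within a library do not depend on how that library was scaled. Against CDKN1B, CCND1 was 13.0 and 14.4 times as high with the control vector and 18.2 and 16.2 times with PRDM16. CDK4 was 7.88 and 7.05 times CDKN1B with the control vector against 9.04 and 9.27 times with PRDM16. Of the 6 ratios to CDKN1B, 5 were higher in both PRDM16 libraries, and the ratio of CDKN2C overlapped. These 6 ratios share the lower CDKN1B values and are not separate results. Of the 15 ratios between the other 6 tested genes, 11 overlapped between the groups, and the 4 that did not all involve CCND3. CCND3 was 1.19 and 1.16 times CDKN2C with the control vector against 1.58 and 1.45 times with PRDM16, higher in both PRDM16 libraries. CCND3 was also higher in both relative to CDK4, CDK6 and RB1, by less over control vector replicate 1 than over replicate 2 (2.27 and 1.39 times RB1 against 2.41 and 2.76 times). These differences were not tested. The share of ratios that separate the groups was not computed over all pairs of loci, so these counts have no background. At single loci, both PRDM16 libraries lay higher in 21.1% and lower in 20.3%. CCND1 was 1.64 and 2.04 times CDK4 with the control vector against 2.01 and 1.75 times with PRDM16, and all D cyclins together were 1.62 and 1.95 times CDK4 and CDK6 together with the control vector and 1.95 and 1.75 times with PRDM16.

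The genes differed by graded amounts in how far apart the control vector libraries lay. CCND3, CDKN2C and CDK6 were lower in control vector replicate 2 than in replicate 1 by 0.97, 0.93 and 0.55 on the log2(FPKM + 1) scale. RB1 and CDK4 differed less, with values of -0.28 and -0.20, and CDKN1B and CCND1 least, with values of -0.04 and 0.11. The median absolute difference between the control vector libraries was 0.28 over the 7 genes and 0.19 over all tested loci. Between the PRDM16 libraries it was 0.09 and 0.10. The lowest of the 4 libraries was control vector replicate 2 at 5 of the 7 genes, and at 38.9% of all tested loci. S phase transcripts fell in that library along with CCND3, CDKN2C and CDK6. CCND1 and CDKN1B did not fall there, at 0.02 and 0.14 above the mean of the other libraries. The part of the S phase transcripts in the result was not tested.

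**Figure D4:**
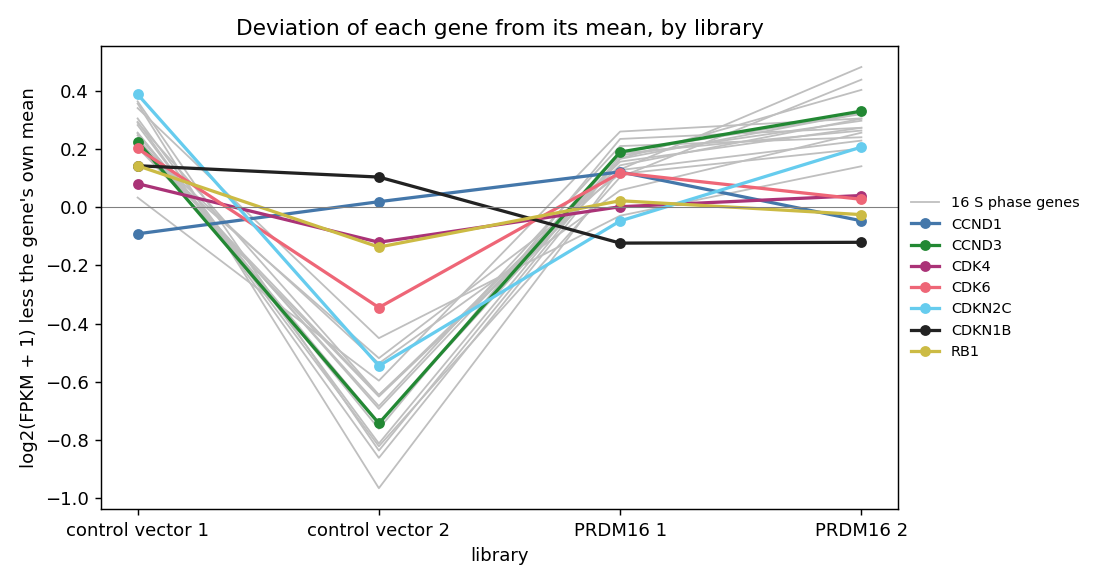
Log2(FPKM + 1) of each gene less its own mean, by library, for the 7 tested genes in colour and the 16 S phase genes in grey; lines only join the values of 1 gene. CCND3, CDKN2C and CDK6 drop with the grey lines in control vector replicate 2, CCND1 does not, and CDKN1B is lower in both PRDM16 libraries.

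CCND3, CDKN2C and CDK6 had the widest range over the 4 libraries among the tested members. The loci most like these 3 genes were found by the root mean square difference between profiles. Each profile was log2(FPKM + 1) less the locus's own mean. Nearest to CCND3 were ATAD2 (0.00790), NRGN (0.0165) and CDC45 (0.0186), of which CDC45 is a replication helicase subunit. Nearest to CDKN2C were PEG10, LIG1, the DNA ligase of replication, and the pseudogene SNRPGP10, at differences from 0.0344 to 0.0457. Nearest to CDK6 were a clone-named locus of unknown function (0.0162), PARP1, a DNA damage sensor (0.0167), and USP39, a splicing factor gene (0.0178). Within the set, CDK4 and RB1 were the closest pair (0.0469) and CDKN1B and CCND3 the most distant (0.506). The difference is not scaled by range, so genes that vary little lie close whatever their shape. The log2 range over the libraries was 0.20 for CDK4, 0.28 for RB1 and 1.07 for CCND3. CDK6 was closer to RB1 (0.121) and CDK4 (0.140) than to CDKN2C (0.183) or CCND3 (0.253). With 4 libraries and 13246 loci, close profiles are easily found, and these names are a description.

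The other genes of the pathway also gave no call. Of 66 such genes in 8 lists, 56 were tested, 8 shared a locus with other genes and 2 were below the filter. Of the 56, 0 passed an adjusted p under 0.05, while 1, CDKN1A, had an unadjusted p under 0.05. Over all tested loci these shares were 0.0226% and 6.12%, so 1 of 56 is no excess. CDKN1A encodes the CIP/KIP inhibitor p21 and was 79.8 and 98.1 FPKM with the control vector against 65.8 and 61.2 FPKM with PRDM16. Both PRDM16 libraries were lower, with a log2 change of -0.47 (SE 0.13, limma adjusted p = 0.689). Its highest library was control vector replicate 2, by 0.51 on the log2 scale above the mean of the others. CDKN2D, the gene of the INK4 protein p19, was 9.44 and 8.43 FPKM with the control vector against 9.49 and 9.23 FPKM with PRDM16. The median log2 change of CDKN1A and CDKN2D was -0.20 with all libraries. Without control vector replicate 2 it was -0.17, with both genes lower. CDKN1C, the gene of p57, was listed at 0 in 3 libraries and at 0.0292 FPKM in PRDM16 replicate 1.

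The E2F factors act downstream of RB1. Among 12 pocket protein, E2F and DP genes, 9 had a higher and 3 a lower mean on the log2 scale, where 50.7% of all tested loci were higher and 49.3% lower, and the median log2 change was 0.20. Without control vector replicate 2 the median was 0.03, with 8 higher and 4 lower. Of all 13246 tested loci, 6461 were then higher and 6756 lower. E2F1, which drives S phase genes, was 32.6 and 14.2 FPKM with the control vector against 31.2 and 36.2 FPKM with PRDM16, so the low library was again control vector replicate 2. E2F4, a factor that acts mainly with the repressive pocket proteins, was 45.4 and 40.4 FPKM against 49.2 and 49.3 FPKM (log2 change 0.20, limma adjusted p = 0.689). TFDP1, the dimer partner of E2F factors, was 46.2 and 27.5 FPKM against 46.2 and 50.6 FPKM. RBL2, the pocket protein p130, was 14.4 and 17.1 FPKM against 14.0 and 13.5 FPKM, lower in both PRDM16 libraries.

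The cyclin E, cyclin A and CDK2 module takes over after the D cyclins. All 7 of its genes had a higher mean log2 value with PRDM16 and were lowest in control vector replicate 2, at a median log2 change of 0.33. CCNE1, which encodes cyclin E1, was 5.61 and 3.996 FPKM against 5.75 and 6.66 FPKM, and CDC25A, a phosphatase that activates CDK2, was 8.71 and 3.72 FPKM against 8.91 and 11.6 FPKM. Without control vector replicate 2 the median of the module was 0.06. The 16 S phase genes had a median log2 change of 0.46 with all libraries and -0.02 without control vector replicate 2. Without that library 14 of 16 had a lower mean, as did 6756 of all 13246 tested loci. The 16 genes moved together in that library, so they are not separate results. CDT1, a replication licensing factor, was 37.7 and 24.1 FPKM against 44.3 and 45.8 FPKM. Of the 16 S phase genes, only CDT1 was higher in both PRDM16 libraries, a pattern found at 21.1% of all tested loci. MCM7 of the replicative helicase was 195 and 107 FPKM against 187 and 209 FPKM.

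Genes that act on the stability or assembly of these proteins gave no call. In the list of turnover factors, 6 were tested, of which 3 were higher and 3 lower, with a median log2 change of -0.01. SKP2, the ubiquitin ligase subunit that targets p27, was 36.0 and 17.8 FPKM against 29.03 and 34.1 FPKM. FBXO4, a ligase subunit linked to cyclin D1, was 12.2 and 12.8 FPKM against 11.0 and 9.06 FPKM, lower in both PRDM16 libraries (log2 change -0.30, limma adjusted p = 0.689). Of the CDK-activating kinase and chaperone list 3 were tested, with a median log2 change of 0.37. HSP90AA1 and HSP90AB1, chaperones of CDK4, had log2 changes of 0.47 and 0.37, with both PRDM16 libraries higher, and did not pass (limma adjusted p = 0.689 each). Without control vector replicate 2 the median of the 3 was 0.10.

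The list of MuvB and DREAM complexes, which act on cell cycle genes, also holds MYBL2 and the kinase DYRK1A. It had a median log2 change of 0.13 over 6 tested genes, of which 4 were higher. LIN9 was 5.16 and 4.03 FPKM against 5.46 and 5.70 FPKM, and LIN52 was 4.56 and 4.57 FPKM against 3.70 and 4.06 FPKM. Without control vector replicate 2 the median was -0.03, with 3 higher and 3 lower. Polycomb genes, whose products are known to silence CDKN2A and CDKN2B, had a median of 0.08 over 4 tested genes. All 4 had a higher mean, as did 50.7% of all tested loci. The log2 changes of CBX8 (0.0008) and RNF2 (0.01) were close to none. EZH2, the methyltransferase subunit, was 25.7 and 17.7 FPKM against 23.9 and 25.2 FPKM, and SUZ12 was 18.0 and 15.7 FPKM against 18.3 and 19.4 FPKM. Without control vector replicate 2 the Polycomb median was -0.05, with 3 of the 4 lower.

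Because CCND3, CDKN2C and CDK6 dropped in the same library as S phase genes, the DNA before their transcription starts was searched for E2F motifs. RefSeq promoter windows on GRCh38.p14 matched 8 of the 10 genes, with 14 windows, in each of which the 250 bases before the start were searched. The motifs were TTTCCCGC, TTTCGCGC, TTTGCCGC and TTTGGCGC for E2F and GGGCGG for the GC box, each on both strands, so that a forward match of one can overlap a reverse match of another. An E2F motif was in 0 of the 14 windows, in 2.79% of all 35116 windows and in 7 of the 20 windows of the S phase genes. A GC box was in 9 of the 14 windows, in 42.6% of all windows and in 15 of the 20. Stretches free of annotated exons are shown for the 3 genes with the widest range over the libraries and for MCM6. MCM6 is the S phase gene with the most E2F matches. GC boxes and E2F motifs are in capitals, and each stretch is read 5′ to 3′ on the gene's strand.
CCND3, chr6:41941849-41942058, minus strand: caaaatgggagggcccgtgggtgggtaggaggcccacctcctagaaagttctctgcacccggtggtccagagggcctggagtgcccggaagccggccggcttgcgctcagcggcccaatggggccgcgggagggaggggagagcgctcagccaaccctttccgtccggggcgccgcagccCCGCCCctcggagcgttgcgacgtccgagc
CDK6, chr7:92836595-92836823, minus strand: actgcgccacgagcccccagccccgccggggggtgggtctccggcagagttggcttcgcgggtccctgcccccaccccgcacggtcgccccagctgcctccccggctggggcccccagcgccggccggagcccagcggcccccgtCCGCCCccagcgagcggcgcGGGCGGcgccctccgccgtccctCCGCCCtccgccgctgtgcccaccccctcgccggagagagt
CDKN2C, chr1:50960495-50960744, plus strand: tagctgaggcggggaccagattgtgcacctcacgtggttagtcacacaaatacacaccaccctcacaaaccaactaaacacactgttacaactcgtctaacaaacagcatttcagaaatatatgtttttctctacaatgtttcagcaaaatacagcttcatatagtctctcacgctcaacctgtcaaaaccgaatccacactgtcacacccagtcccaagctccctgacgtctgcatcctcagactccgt
MCM6, chr2:135876444-135876693, minus strand: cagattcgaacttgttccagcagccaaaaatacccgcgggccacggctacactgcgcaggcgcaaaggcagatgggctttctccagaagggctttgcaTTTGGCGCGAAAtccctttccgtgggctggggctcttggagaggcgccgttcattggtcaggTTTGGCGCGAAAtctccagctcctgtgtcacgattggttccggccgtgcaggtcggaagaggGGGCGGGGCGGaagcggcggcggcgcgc
The CCND3 stretch holds 1 GC box, the CDK6 stretch 3, the CDKN2C stretch none of these motifs, and the MCM6 stretch 4 overlapping E2F matches and 2 overlapping GC boxes. The windows not printed hold 5 and 1 GC boxes for CDKN2C, 5 and 0 for CCND3, and 0 for CDK6. CCND3, CDK6, CDKN2A and CDKN2C have more than 1 such window each. The printed CCND3 stretch lies before a start inside the annotated gene. So do several other windows, including all those of CCND3, CDK4, CDKN1B and RB1. For these genes the DNA before the outermost annotated start was not searched. The only RB1 window was searched at 48476200 to 48476449, in a gene annotated from 48303726 to 48599436. The expression table does not say which start was used. A match is a run of letters and not a bound site, and a window without one says only that these letters are not in it.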

How the data were processed

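Total RNA of 786-O cells was extracted and sequenced on Illumina libraries, per the labels' protocols. Per the submitters' processing notes, the tools were Cufflinks 2.2.1 with Cuffdiff, TopHat2 2.1.0 and Trim Galore, with the build hg38. Annotation and scaling: not given in the sources used here. Taken as FPKM, a unit the header does not name, the authors' deposited values fit those tools' output, and they are neither whole numbers, as counts are, nor of 1 common sum, as TPM are. Groups follow the vector label.

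Loci with a mean of at least 1 FPKM were tested with limma 3.58.1 in R 4.3.3 on log2(FPKM + 1), with a variance trend, two-sided, and Benjamini-Hochberg adjustment over all 13246 loci. Changes of low genes are understated on that scale. The fit was tested on simulated data with noise drawn separately at each locus. A shift shared by many genes in a library was not simulated. Gene coordinates are from GENCODE release 29 and promoter windows from RefSeq. The members and lists were chosen with earlier results of these data known. All 10 members are named, and from each list those past the threshold, or otherwise the 2 with the smallest p, with further examples chosen after their values were seen. Alternatives changed the pseudocount, filter, scaling, variance model, replicate block or library set. Python 3.11.15, pandas 2.3.3 and matplotlib 3.10.9 made tables and plots.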

Additional observations from a re-analysis of the deposited data

How the results depend on the processing

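None of the 7 tested members was called in any of the 14 alternatives, and neither was any other pathway gene. CDKN1B and CCND3 kept their direction in all of them. The others changed sign in some. Leaving out 1 library at a time gave log2 changes from -0.0104 (without PRDM16 replicate 1) to 0.157 for CCND1. The range was -0.0599 to 0.14 for CDK4, -0.13 to 0.417 for CDK6 and -0.31 to 0.624 for CDKN2C, with the values below 0 all found without control vector replicate 2. For RB1 it was -0.144 to 0.135, above 0 without control vector replicate 1 and, at 0.02, without PRDM16 replicate 2. The causes were not tested. Among all tested loci, 3 were called. The number was 5 with a pseudocount of 0.1, 1 without the filter on low values (loci at 0 in all 4 libraries left out), 6 without a variance trend and 5 with robust variances, and 16 to 39 when 1 library was left out. Libraries with the same number did not deviate together (correlation -0.058 across loci), and with the replicate number as a block 5 loci were called, none of them a member. Read depth is unknown, so no counting error is given. The count-based tools listed in case of counts were not run.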
